A study of Mus musculus with 6 samples.

Results

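The genes described are those of extracellular vesicle formation and release: tetraspanins, RAB GTPases, the ESCRT complexes with their helpers, and the lipid and membrane fusion factors that act beside them. They were taken by gene symbol from a fixed list of 38, of which 37 were found among the 14228 genes of the deposited count table, and Vamp7 was not analysed here. RNA was counted in podoplanin-positive cells sorted from mouse stomach after removal of CD31-, CD45- and EpCAM-positive cells, in 3 libraries from mice with induced gastric cancer (cancer-associated fibroblasts, CAF) and 3 from control mice (normal). All mice carried the triple-transgenic iLgr5;GLI2A alleles, a model in which an active form of the Hedgehog factor GLI2 is induced in Lgr5-expressing cells, and were 8 weeks old. In CAF mice the transgenes were induced by 5 days of oral tamoxifen in corn oil followed by 3 weeks of doxycycline chow, supplemented during its first 3 days by doxycycline in sweetened water. Control mice were given corn oil without tamoxifen or doxycycline, and drug effects and cancer effects therefore cannot be told apart. CAF libraries 1, 2 and 3 pooled the cells of 1, 2 and 2 mice, and normal libraries 1, 2 and 3 those of 1, 1 and 2 mice.

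Extracellular vesicles are small membrane sacs that cells release and that carry proteins and RNA to other cells. Exosomes begin as vesicles that bud into the lumen of a late endosome, where ESCRT-0 gathers ubiquitinated cargo, ESCRT-I and ESCRT-II shape the bud, ESCRT-III filaments cut its neck and the ATPase VPS4 recycles the filaments. Tetraspanins sort cargo, the syntenin and ALIX route and the ceramide route act beside the canonical one, and RAB GTPases with SNARE proteins bring the endosome to the plasma membrane. Fibroblasts of tumours are known to release such vesicles, and the same machinery also serves receptor degradation, cell division and membrane repair in every cell.

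Depth was 644522 to 6422568 counts per CAF library and 768420 to 3259644 counts per normal library. Fibroblast markers (collagens, matrix proteins, Pdgfra and the sort marker Pdpn) were present in all 6 libraries (8 genes, which took 0.892% to 3.43% of counts in CAF and 0.378% to 1.37% in normal). Genes of the gastric gland (pit, neck, chief, parietal and enteroendocrine markers, 21 found of 24 listed) took 0.555% to 0.860% of counts in CAF, and 17.9%, 14.1% and 4.05% in normal libraries 1, 2 and 3. Squamous markers took 0.00776% to 0.0117% in CAF, and 0.136%, 0.239% and 0.0152% in these normal libraries. Mesothelial markers took 0.0174% to 0.0257% in CAF and 0.0388% to 0.0742% in normal. Most of these counts were of Krt19, which is also in the epithelial list below and was lower in CAF. The more specific markers went the other way. Msln (log2 fold change 3.76, without overlap) and Wt1 (3.56) were higher in CAF and did not pass. Below the filter, Upk3b had 1, 12 and 4 counts in CAF and 0 in each normal library, and Lrrn4 1, 2 and 8 against 1, 0 and 0. Those of smooth muscle and pericytes took 0.0520% to 0.122% and 0.0329% to 0.0632%, and those of glia 0.00455% to 0.0110% and 0.000184% to 0.000651%. Of the markers of cells removed in the sort, those of general epithelium (6 genes) took 0.130% to 0.281% of counts in CAF and 0.114% to 0.394% in normal. The log2 fold change of Epcam was 0.94 and those of the other 5 were below 0, with Krt19 (-2.03) and Cldn18 (-3.71) lower without overlap, and none of the 6 passed. The immune genes (6 found of 8 listed) took 0.00791% to 0.183% in CAF and 0.00436% to 0.0685% in normal, with S100a9 highest in CAF library 2 (1076 CPM, the count relative to the library size that edgeR scales) and normal library 2 (452 CPM). Their defining gene Ptprc stood at 0 to 5.52 CPM. The endothelial genes (5 found of 6 listed) took 0.00233% to 0.00285% in CAF and 0.000781% to 0.00233% in normal, with Pecam1 at 0 to 9.39 CPM and Cdh5 higher without overlap in CAF (log2 fold change 1.7, not passed). In bulk RNA, fewer cells of a type and less RNA per cell cannot be told apart.

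None of the vesicle and ESCRT genes passed the test between CAF and normal fibroblasts. In the quasi-likelihood fit of edgeR, adjusted by Benjamini-Hochberg over 10148 genes, 0 of the 35 genes that passed the filter on low counts were called at an adjusted p under 0.05, where 1.1% of all tested genes were called (0.897% higher and 0.207% lower in CAF). At an unadjusted p under 0.05 there were 2, Cd82 lower and Stam higher in CAF, against 15.3% of all tested genes. DESeq2 and limma-voom also called 0 of them. DESeq2 called 7.28% of all genes tested (3.12% higher and 4.17% lower in CAF) and limma-voom 0.641% (0.483% higher and 0.158% lower). At an unadjusted p under 0.05 DESeq2 had 3 of the 37 genes, against 17.4% of all genes it tested, and limma-voom 5 of the 35, against 19.4%. In the authors' deposited table, too, 0 of the 37 genes had an adjusted p under 0.05 (6.37% of all genes listed there did). The median log2 fold change of the 35 genes was 0.08, beside 0.06 over all genes tested. Of the 35 genes 22 were above 0 and 13 below, and 53.9% of all genes tested were above 0.

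The share of all counts that the 37 genes took together was 0.527%, 0.504% and 0.466% in CAF libraries 1, 2 and 3 and 0.315%, 0.298% and 0.519% in normal libraries 1, 2 and 3. Normal library 3 thus lay within the range of the CAF libraries and normal libraries 1 and 2 below it. The widest exact 95% binomial interval, that of CAF library 1, was 0.510% to 0.545%, and such intervals cover counting error only. On scaled library sizes the summed level of these genes was 4045 to 4973 CPM in CAF and 3406 to 4984 CPM in normal libraries, and the groups overlapped.

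**Figure D1:**
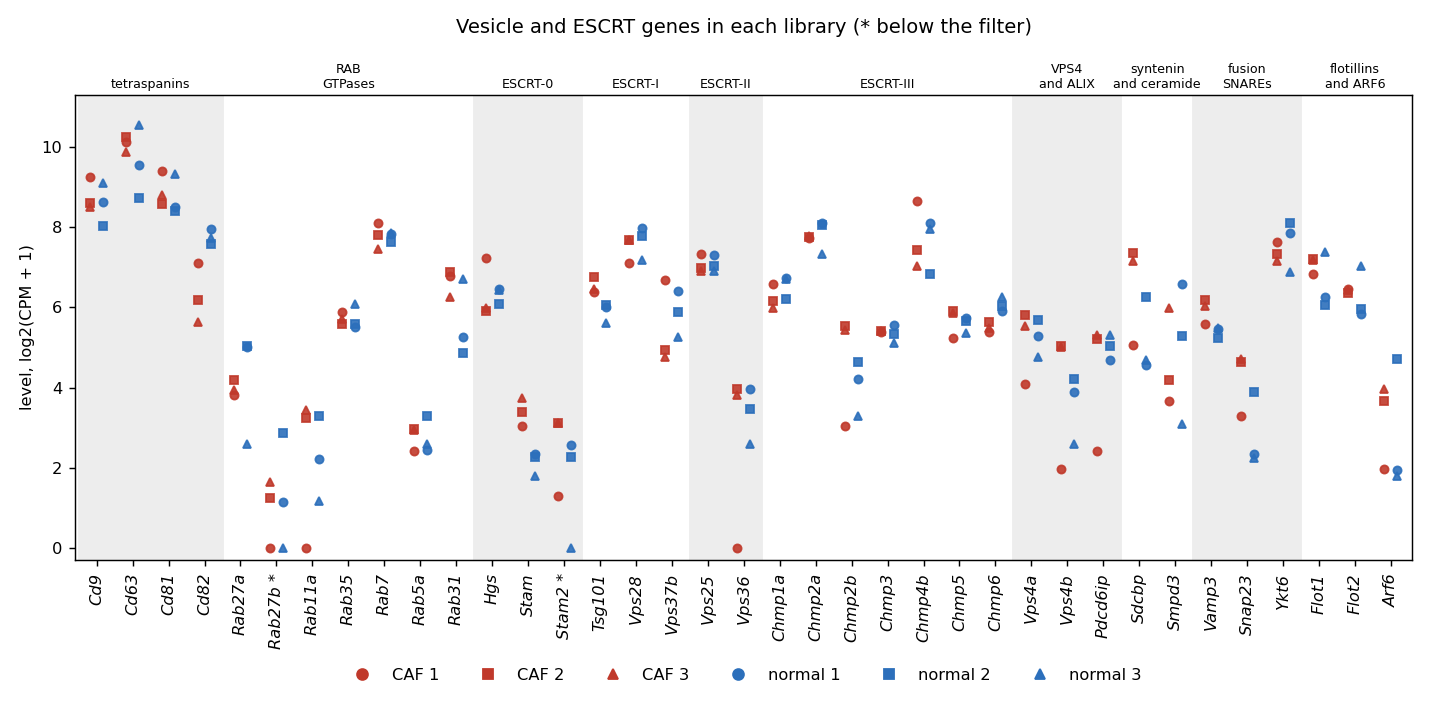
Level of each of the 37 vesicle and ESCRT genes in each of the 6 libraries, as log2(CPM + 1), with CAF in red and normal in blue and the marker shape giving the library; shading separates the functional groups and an asterisk marks genes below the filter. Cd82, Stam, Tsg101, Chmp6 and Vamp3 are the tested genes in which the 3 CAF and 3 normal libraries do not overlap.

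For 8 of the 35 genes the 95% interval of the log2 fold change lay between -1 and 1, so that a change of 2-fold or more in either direction was outside it, and this held for 11.2% of all genes tested. Over the 35 genes the half-width of the interval was 0.65 to 2.37 on the log2 scale. A p-value that misses the threshold therefore does not show equal levels for the other 27 genes, of which 22 had an interval reaching 1 or more and 14 one reaching -1 or less. Groups without overlap were found in 5 of the 35 genes, 3 higher and 2 lower in CAF, against 19.9% of all tested genes (10.6% higher and 9.35% lower).

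**Figure D2:**
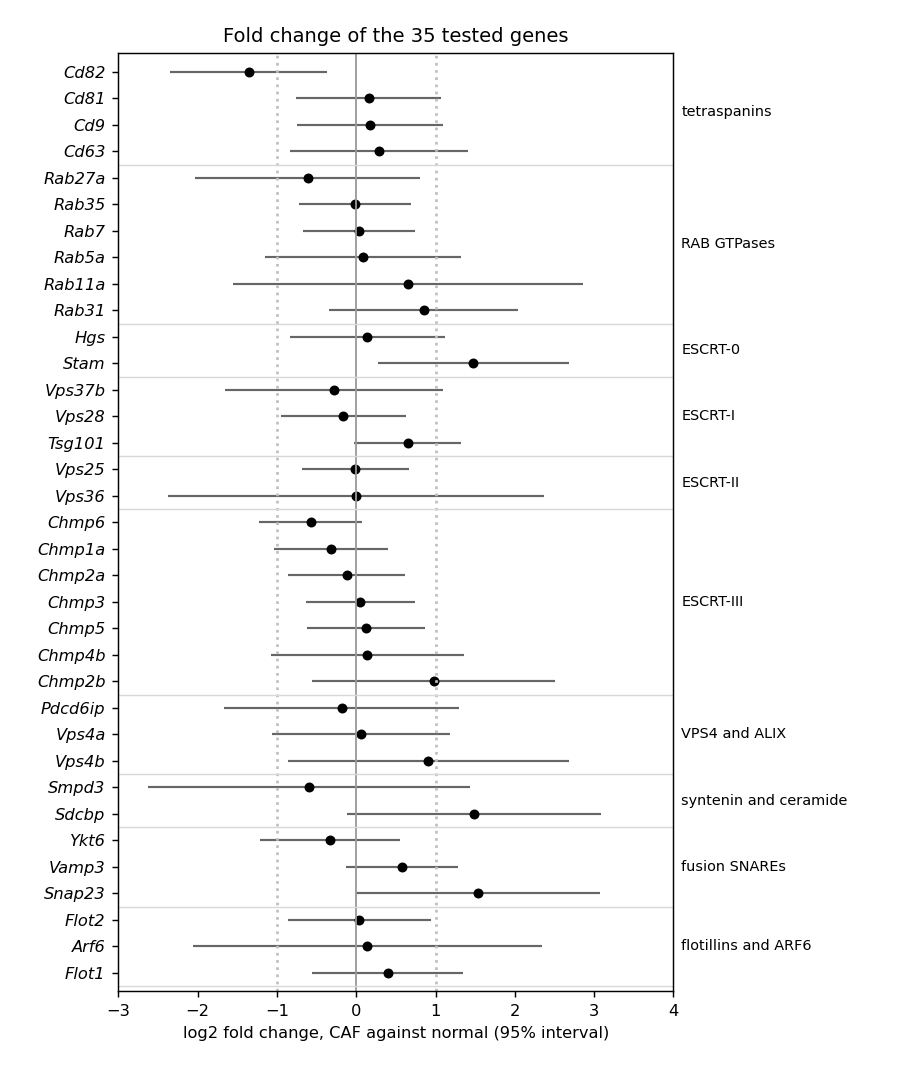
Log2 fold change of CAF against normal for the 35 tested genes, as points with 95% intervals from the edgeR fit, grouped by function; dotted lines mark a log2 fold change of -1 and 1. Only the intervals of Cd82 (-2.35 to -0.37) and Stam (0.27 to 2.69) exclude 0, and neither gene passes after adjustment.

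The levels of these genes moved with the base composition of their transcripts in a way that cut across the groups. Over the 9871 tested genes with a GC value, the level in CAF library 1 and normal libraries 1 and 3 rose with the GC content of the longest coding transcript, by 0.64, 0.26 and 0.39 on the log2 scale per 10 percentage points relative to the mean of all libraries. In CAF libraries 2 and 3 and normal library 2 the slope was -0.44, -0.48 and -0.36. The former 3 libraries are called GC-favouring here and the latter 3 AT-favouring. The division was read from the data and is no group of the study. Among the 35 genes the difference between the 2 sets of libraries had a Spearman correlation of 0.55 with GC content, and over all tested genes of 0.52. The sets were formed by the sign of each library's slope over the tested genes, so a positive relation over those genes was built in. The points also share libraries and depth, and both values are descriptions only.

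**Figure D3:**
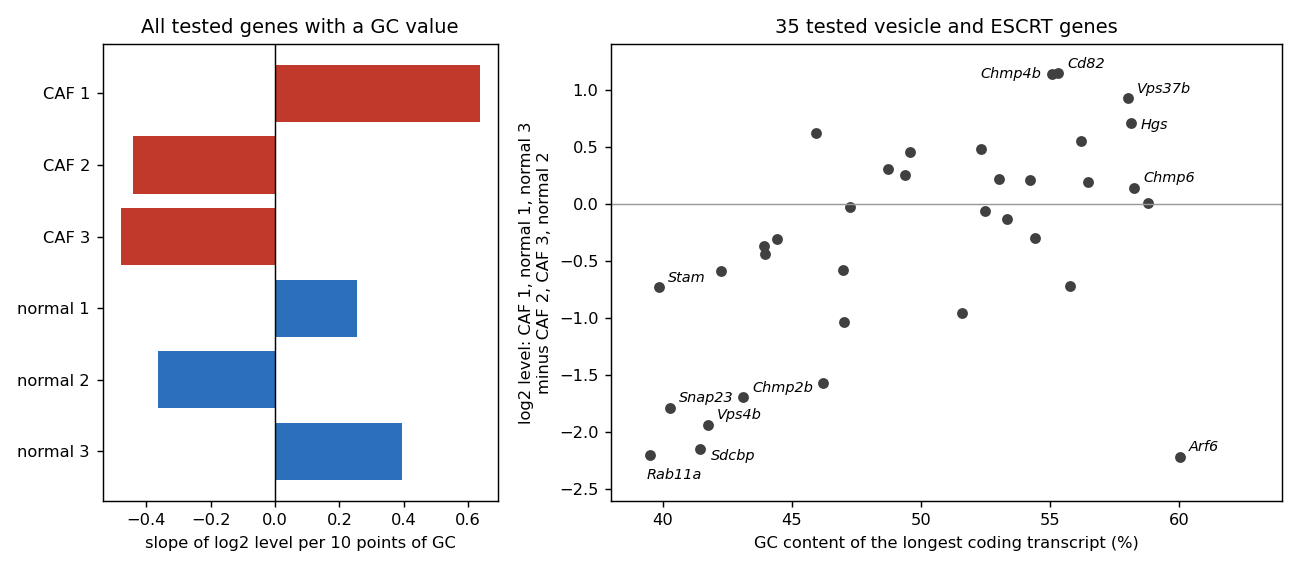
Left, slope of the log2 level on transcript GC content in each library over 9871 genes. Right, for the 35 tested genes, GC content against the mean log2(CPM + 1) of CAF 1, normal 1 and normal 3 minus that of CAF 2, CAF 3 and normal 2; AT-rich genes such as Rab11a, Sdcbp and Vps4b lie low, GC-rich Cd82, Chmp4b and Vps37b lie high, but Arf6, Smpd3 and Vps4a lie low and Cd9 high against that order.

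The 3 genes most shifted to each set of libraries are shown by the last 90 coding bases before the stop codon, the part of the reading frame nearest to the counted 3′ end, with G and C in capitals (5′ to 3′, longest basic coding transcript of GENCODE M21, build mm10). Cd82 (chromosome 2, 93419111 to 93463140, minus strand), Chmp4b (chromosome 2, 154651705 to 154694785, plus strand) and Vps37b (chromosome 5, 124004641 to 124032270, minus strand) read higher in the GC-favouring libraries, by 1.14, 1.13 and 0.92 on the log2 scale. Arf6 (chromosome 12, 69372150 to 69373783, plus strand), Rab11a (chromosome 9, 64715299 to 64737758, minus strand) and Sdcbp (chromosome 4, 6365650 to 6408423, plus strand) had differences of -2.21, -2.20 and -2.15.
Cd82: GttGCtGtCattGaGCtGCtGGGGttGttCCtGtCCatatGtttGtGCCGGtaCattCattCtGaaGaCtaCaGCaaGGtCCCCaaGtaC
Chmp4b: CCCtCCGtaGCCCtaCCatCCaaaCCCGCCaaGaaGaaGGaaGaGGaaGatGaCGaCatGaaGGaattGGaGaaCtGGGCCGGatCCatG
Vps37b: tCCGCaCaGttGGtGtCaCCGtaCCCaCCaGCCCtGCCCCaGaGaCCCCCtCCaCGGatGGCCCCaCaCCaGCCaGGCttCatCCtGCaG
Arf6: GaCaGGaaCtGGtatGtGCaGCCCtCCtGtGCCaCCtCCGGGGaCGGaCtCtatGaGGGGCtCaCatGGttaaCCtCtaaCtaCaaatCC
Rab11a: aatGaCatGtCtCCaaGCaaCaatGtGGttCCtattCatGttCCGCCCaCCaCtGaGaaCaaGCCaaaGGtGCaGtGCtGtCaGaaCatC
Sdcbp: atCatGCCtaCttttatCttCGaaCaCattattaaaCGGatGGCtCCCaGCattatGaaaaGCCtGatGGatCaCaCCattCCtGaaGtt

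Of the 90 bases shown, G and C made up 60 in Vps37b and 36 in Sdcbp, the extremes of the 6. Over the whole transcript the GC content was 55.3% for Cd82, 55.1% for Chmp4b and 58.0% for Vps37b, and 39.5% for Rab11a and 41.5% for Sdcbp. Arf6, at 60.0%, departed from the order, as did Smpd3 (55.8%, difference -0.72), Vps4a (51.6%, -0.96) and Cd9 (45.9%, 0.62). Over the last 500 bases of the transcript Arf6 had 41.2% GC, and Chmp4b, shifted the other way, 43.6%. CAF held 2 AT-favouring libraries and normal 1. The log2 fold changes of the 35 genes had a Spearman correlation of -0.58 with GC content, and those of all tested genes of -0.23. The part of base composition in the fold changes was not tested. The values within each set of libraries, and those of a fit with the set as a block, which was chosen after seeing the data, are given below for the genes whose results turn on them. In that fit, too, 0 of the 35 genes were called, where 1.19% of all tested genes were (1.04% higher and 0.148% lower in CAF).

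Among the tetraspanins, membrane proteins that organise cargo in vesicles and at the cell surface, Cd82 was the gene of smallest p in the whole set. It stood at 138, 71.9 and 48.3 CPM in CAF libraries 1, 2 and 3 and at 248, 189 and 213 CPM in normal libraries 1, 2 and 3. The groups did not overlap, and normal library 3 lay between the other normal libraries. Cd82, known as a suppressor of metastasis, was 2.56-fold lower in CAF, a log2 fold change of -1.36 ± 0.43 (SE) that did not pass (adjusted p = 0.176). CAF was the lower group within both sets of libraries, by -0.74 in the GC-favouring and -1.66 in the AT-favouring set on the log2(CPM + 1) scale. Where groups do not overlap, as here and in Stam, Tsg101, Chmp6 and Vamp3, the same sign in both sets is fixed in advance. Only the sizes within the sets are then informative. With the set as a block the log2 fold change of Cd82 was -1.20 (adjusted p = 0.135).

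Cd63, the late endosome tetraspanin that marks exosomes, was at 1105, 1206 and 942 CPM in CAF libraries 1, 2 and 3. The values of normal libraries 1, 2 and 3 were 741, 422 and 1497 CPM, so that the highest and the lowest values were both normal. This gave a log2 fold change of 0.29 ± 0.48 (SE), which did not pass (adjusted p = 0.84) and was -0.41 against normal library 3 alone. Cd9, a tetraspanin of the plasma membrane, had a mean of 452 ± 138 CPM in CAF and of 399.6 ± 145 CPM in normal libraries (SD, n = 3 in each). Cd81, the partner of receptors and integrins, averaged 497 ± 150 and 445 ± 169 CPM. The log2 fold changes of Cd9 and Cd81 were 0.17 and 0.16, with intervals of -0.74 to 1.09 and -0.76 to 1.07, and their groups overlapped.

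Of the 7 RAB GTPases, the switches that direct endosome traffic, 6 were tested and had log2 fold changes from -0.61 to 0.85. Rab31, which drives ESCRT-independent budding into the endosome, was at 110, 117 and 75.7 CPM in CAF libraries 1, 2 and 3. It was at 37.1 and 27.9 CPM in normal libraries 1 and 2 and at 104 CPM in normal library 3, inside the CAF range. With all libraries the log2 fold change was 0.85 ± 0.51 (SE), which did not pass (adjusted p = 0.513). Without normal library 3 it was 1.54 and passed (adjusted p = 0.0369), in a fit that called 10% of all genes tested (3.47% higher and 6.57% lower in CAF). Against normal library 3 alone it was 0.0073. Within the sets of libraries CAF minus normal was 0.81 and 1.72 for Rab31, and the blocked value was 1.2 (adjusted p = 0.328).

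Rab27a, the GTPase that docks endosomes for exosome release, was at 13.2, 17.3 and 14.3 CPM in CAF libraries 1, 2 and 3. Normal libraries 1 and 2 were at 31.4 and 31.7 CPM and normal library 3 was at 5.0 CPM. The value of normal library 3 rested on 4 counts and that of CAF library 1 on 9. The normal values thus lay on both sides of the CAF values, and the gland share was 17.9%, 14.1% and 4.05% in these normal libraries. The part of gland RNA in this was not tested. In the fit of all 6 libraries the log2 fold change was -0.61 ± 0.61 (SE; adjusted p = 0.716), and it was 1.65 against normal library 3 alone. Rab27b, its close relative in secretory epithelium, fell below the filter, with 0, 10 and 16 counts in the CAF and 3, 5 and 0 counts in the normal libraries.

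Rab7, the late endosome and lysosome switch, stood at a mean of 223 ± 51.0 CPM in CAF and of 217 ± 18 CPM in normal libraries. Its interval, -0.67 to 0.74 on the log2 scale, held no change of 2-fold. The same was so for Rab35, a recycling GTPase also linked to exosome release, at 52.1 ± 5.89 and 52.7 ± 11.8 CPM (interval -0.72 to 0.69). Rab5a, of early endosomes, averaged 6.02 and 6.12 CPM with a wide interval of -1.15 to 1.32. Rab11a, of recycling endosomes, had 0 counts in CAF library 1, where 3 counts would be 4.39 CPM, and was at 8.56 and 9.87 CPM in CAF libraries 2 and 3. Its normal values of 3.67, 8.87 and 1.25 CPM rested on 9, 7 and 1 counts, and its interval was wide, -1.55 to 2.86 on the log2 scale.

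In ESCRT-0, which binds ubiquitinated cargo, Stam was higher in each CAF library than in any normal library. Stam, a signal-transducing adaptor, was at 7.32, 9.52 and 12.3 CPM in CAF libraries 1, 2 and 3 and at 4.08, 3.80 and 2.50 CPM in normal libraries 1, 2 and 3. The normal values rested on 10, 3 and 2 counts. The log2 fold change was 1.48 ± 0.52 (SE), or 2.79-fold, and did not pass (adjusted p = 0.228). It was 0.98 and 1.30 within the GC-favouring and AT-favouring sets and 1.27 with the set as a block (adjusted p = 0.281).

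Hgs, the core ESCRT-0 subunit that pairs with STAM proteins, was at 148, 58.9 and 62.6 CPM in CAF libraries 1, 2 and 3 and at 87.3, 67.1 and 85.0 CPM in normal libraries 1, 2 and 3. CAF library 1 alone lay above the normal range, and CAF libraries 2 and 3 below it. The log2 fold change of 0.14 ± 0.42 (SE, adjusted p = 0.922) became -0.40 without CAF library 1. Hgs is GC-rich (58.1%), and within the sets CAF minus normal was 0.77 and -0.14. Stam2, the paralog of Stam, was below the filter, with 1, 56 and 57 counts in the CAF and 12, 3 and 0 counts in the normal libraries.

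In ESCRT-I, which links cargo to the budding machinery, Tsg101 was at 81.9, 107 and 87.1 CPM in CAF libraries 1, 2 and 3. The values of normal libraries 1, 2 and 3 were 62.8, 65.9 and 47.5 CPM, and the groups did not overlap. Tsg101, the subunit that viruses recruit for budding and a common vesicle marker, had a log2 fold change of 0.65 ± 0.29 (SE), or 1.57-fold, which did not pass (adjusted p = 0.352). CAF was higher by 0.58 and 0.54 within the 2 sets of libraries. Vps28, a core ESCRT-I subunit, had means of 182 ± 38.5 CPM in CAF and 204 ± 54.2 CPM in normal libraries (log2 fold change -0.16, interval -0.95 to 0.62). Its values were 138, 204 and 204 CPM in CAF libraries 1, 2 and 3 and 249, 219 and 144 CPM in normal libraries 1, 2 and 3, and against normal library 3 alone its log2 fold change was 0.41. Vps37b, a subunit with variable tissue use, was at 101 CPM in CAF library 1 and at 29.7 and 26.1 CPM in CAF libraries 2 and 3, around normal values of 84.5, 58.3 and 37.5 CPM, so its groups overlapped.

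ESCRT-II, the bridge to ESCRT-III, had log2 fold changes close to 0 with all 6 libraries, but that of Vps36 moved between settings. Vps25 was at 161, 125 and 119 CPM in CAF libraries 1, 2 and 3 and at 158, 129 and 119 CPM in normal libraries 1, 2 and 3. Its log2 fold change was -0.0095 ± 0.29 (SE; adjusted p = 0.994), with an interval of -0.68 to 0.66. Vps36, the ubiquitin-binding subunit, had 0 counts in CAF library 1 and was at 14.8 and 13 CPM in CAF libraries 2 and 3. The values of normal libraries 1, 2 and 3 were 14.7, 10.1 and 5.0 CPM. The fitted log2 fold change was -0.0014, with a wide interval of -2.37 to 2.37. It was 0.41 without CAF library 1, -0.75 with the set of libraries as a block and -0.56 adjusted for mice per library, and within the sets -3.28 and 0.42.

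ESCRT-III, whose subunits polymerise into the filaments that cut the bud, had 7 genes tested, with log2 fold changes from -0.57 to 0.97. Chmp6, the subunit that ESCRT-II recruits first, was at 41.0, 48.4 and 43.6 CPM in CAF libraries 1, 2 and 3 and at 59.6, 64.6 and 75 CPM in normal libraries 1, 2 and 3. The groups did not overlap, and normal library 3 was the highest. The log2 fold change was -0.57 ± 0.28 (SE), or 1.49-fold lower in CAF, and did not pass (adjusted p = 0.393). CAF was lower by -0.69 and -0.48 within the 2 sets of libraries, and the blocked value was -0.59.

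Chmp2b, a filament subunit mutated in a hereditary dementia, was at 7.32 CPM in CAF library 1 and at 45.5 and 42.5 CPM in CAF libraries 2 and 3. Its normal values were 17.5, 24.1 and 8.75 CPM, so the lowest and the highest libraries were both CAF. The log2 fold change of 0.97 ± 0.66 (SE, adjusted p = 0.564) fell to 0.16 with the set of libraries as a block. Within the sets it had opposite signs, -0.69 and 0.84.

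Chmp3, another filament subunit, had means of 41.4 ± 0.42 CPM in CAF and 39.8 ± 6.40 CPM in normal libraries, and Chmp5, which binds the VPS4 cofactor, 51.1 ± 12.6 and 47.2 ± 6.39 CPM. The core filament subunit Chmp2a averaged 215 ± 2.54 and 234 ± 63.9 CPM. The intervals of all 3 lay within 2-fold: -0.64 to 0.74, -0.62 to 0.87 and -0.86 to 0.62 on the log2 scale. Chmp1a, a late-acting subunit, averaged 76.1 ± 16.9 and 93.9 ± 17.7 CPM (log2 fold change -0.32). Chmp4b, the main filament subunit, spanned 129.7 to 399 CPM in CAF and 113 to 272 CPM in normal libraries, with the highest value in CAF library 1.

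The genes of filament recycling and of the ALIX branch were all lowest in CAF library 1. Vps4b, one of the paired ATPases, was at 2.93 CPM there, from 2 counts, and at 31.6 and 31.1 CPM in CAF libraries 2 and 3. Its normal values were 13.9, 17.7 and 5.0 CPM, and the log2 fold change of 0.91 ± 0.76 (SE, adjusted p = 0.66) became -0.05 with the set of libraries as a block. Pdcd6ip, which encodes the ESCRT and syntenin partner ALIX, was at 4.39 CPM in CAF library 1, from 3 counts, and at 36.0 and 38.4 CPM in CAF libraries 2 and 3. The normal libraries were at 24.9, 31.7 and 38.8 CPM, and the log2 fold change of -0.19 ± 0.64 (SE, adjusted p = 0.934) turned to 0.25 without CAF library 1. It was -0.87 with the set as a block and -1.02 adjusted for mice per library, and within the sets -2.57 and 0.23. Vps4a, the second ATPase, was at 16.1, 54.8 and 45.2 CPM in CAF and at 37.9, 50.7 and 26.3 CPM in normal libraries, with a log2 fold change of 0.06, and of -0.45 with the set as a block.

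**Figure D4:**
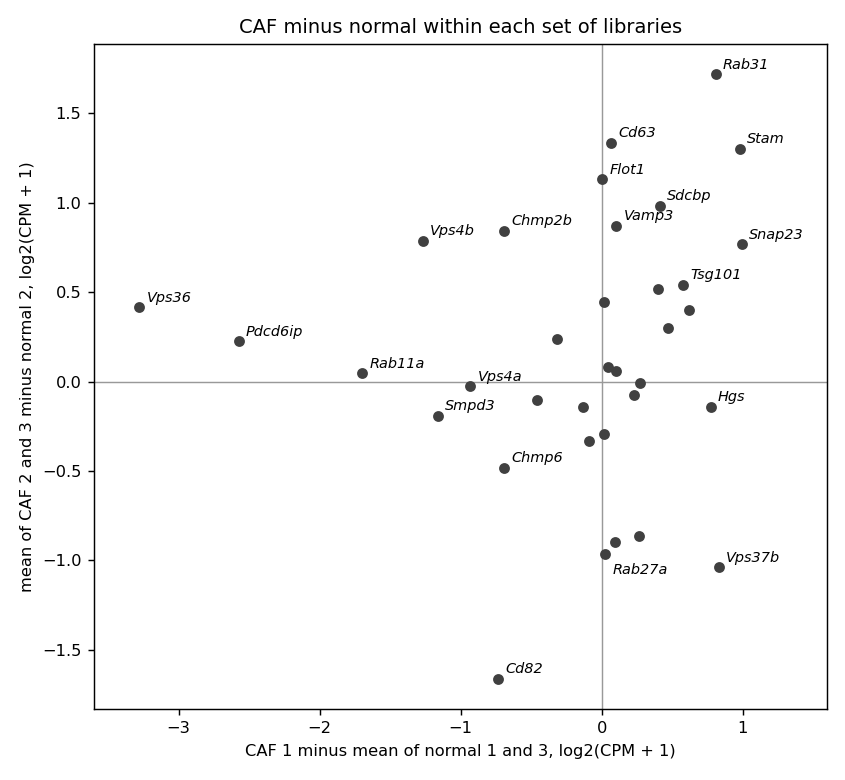
CAF minus normal on the log2(CPM + 1) scale for the 35 tested genes, within the GC-favouring libraries (horizontal axis, CAF 1 against normal 1 and 3) and within the AT-favouring libraries (vertical axis, CAF 2 and 3 against normal 2). Stam, Snap23, Tsg101 and Rab31 lie above 0 on both axes and Cd82 and Chmp6 below 0 on both, while Vps36, Pdcd6ip, Vps4b and Chmp2b have opposite signs. For Stam, Tsg101, Cd82 and Chmp6 the shared sign was fixed in advance, because their groups do not overlap.

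Over all 35 genes, CAF minus normal had the same sign in both sets of libraries for 21. Among them are Cd82, Stam, Tsg101, Chmp6 and Vamp3, for which groups without overlap fixed this in advance. The share over all tested genes was not computed, so the count cannot be read as particular to the vesicle genes. Each set held a group with a single library, so these within-set values carry no test. In the AT-favouring set that library was normal library 2, and in the GC-favouring set it was CAF library 1, the shallowest of all.

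Sdcbp encodes syntenin, the scaffold that couples syndecans to ALIX in exosome formation. It was at 32.2, 163 and 141 CPM in CAF libraries 1, 2 and 3 and at 22.9, 76.0 and 25 CPM in normal libraries 1, 2 and 3. In both groups the AT-favouring libraries were the high ones, and CAF library 1 lay below normal library 2. The fit gave a log2 fold change of 1.48 ± 0.69 (SE), or 2.79-fold, and did not pass (adjusted p = 0.369). With the set of libraries as a block it was 0.74 (adjusted p = 0.265), and within the sets 0.41 and 0.98. Without normal library 2 it was 2.24 (adjusted p = 0.234). Smpd3, the neutral sphingomyelinase that makes ceramide for ESCRT-independent budding, was at 11.7, 17.4 and 62.5 CPM in CAF and at 94.3, 38 and 7.50 CPM in normal libraries 1, 2 and 3. Its normal values spanned more than the CAF values and were highest in normal library 1, where the gland share was also highest. Whether gland RNA contributes was not tested. The log2 fold change of -0.60 ± 0.88 (SE, adjusted p = 0.819) turned to 2.14 against normal library 3 alone, where Smpd3 had 6 counts.

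Of the SNARE proteins that fuse vesicles with target membranes, Vamp3, of recycling endosomes, was at 46.8, 71.9 and 64.4 CPM in CAF libraries 1, 2 and 3. It was at 43.3, 36.7 and 43.8 CPM in normal libraries 1, 2 and 3, without overlap. Its log2 fold change was 0.57 ± 0.30 (SE), or 1.49-fold, and did not pass (adjusted p = 0.442). The difference was 0.10 within the GC-favouring and 0.87 within the AT-favouring libraries.

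Snap23, the plasma membrane SNARE partner of VAMP proteins, had the largest positive log2 fold change of the 35 genes, 1.53 ± 0.66 (SE), or 2.90-fold (adjusted p = 0.329). It was at 8.78, 23.7 and 25.2 CPM in CAF libraries 1, 2 and 3 and at 4.08, 13.9 and 3.75 CPM in normal libraries 1, 2 and 3, so normal library 2 lay above CAF library 1. The normal values rested on 10, 11 and 3 counts. Within the sets of libraries CAF was higher by 0.99 and 0.77, and the blocked value was 0.94. Without normal library 2 the log2 fold change was 2.31 (adjusted p = 0.212). Ykt6, a lipid-anchored SNARE of the Golgi and endosome, was at 198, 159 and 140 CPM in CAF and at 231, 272 and 117.6 CPM in normal libraries 1, 2 and 3 (log2 fold change -0.33). Its normal values again lay on both sides of the CAF values.

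The flotillins, scaffold proteins of lipid-ordered membrane and common vesicle markers, were highest in normal library 3. Flot1 was at 113, 147 and 144 CPM in CAF libraries 1, 2 and 3 and at 75.9, 65.9 and 166 CPM in normal libraries 1, 2 and 3. The fitted log2 fold change was 0.40 ± 0.41 (SE; adjusted p = 0.723), and it was -0.24 against normal library 3 alone. Flot2 held 84.2 ± 3.12 CPM over the CAF libraries and spread from 55.9 to 130 CPM over the normal libraries, with a log2 fold change of 0.04. Arf6, the GTPase of plasma membrane recycling and syntenin-dependent budding, was at 2.93, 11.7 and 14.7 CPM in CAF and at 2.86, 25.3 and 2.50 CPM in normal libraries 1, 2 and 3. Its log2 fold change of 0.14 ± 0.95 (SE, adjusted p = 0.97) had an interval of -2.06 to 2.34 and was -0.70 with the set of libraries as a block.

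Normal library 3 stood apart from normal libraries 1 and 2 in many of these genes, in both directions. It lay more than 1 above the mean of the other two on the log2(CPM + 1) scale in 4 of the 35 genes, Rab31 (1.66), Cd63 (1.42), Flot1 (1.22) and Flot2 (1.14). It lay more than 1 below in 8, from Smpd3 (-2.84) and Rab27a (-2.44) to Ykt6 (-1.09). Over all tested genes these shares were 15.9% and 22.3%, so a like part of the table differed as much. Most of the low genes rested on few counts in normal library 3, where 3 counts equal 3.75 CPM. The counts there were 1 (Rab11a), 2 (Arf6), 4 (Rab27a, Vps36 and Vps4b), 6 (Smpd3) and 7 (Chmp2b), beside 94 for Ykt6. For Arf6 it was normal library 2 that stood apart, at 25.3 CPM against 2.86 and 2.50 CPM in normal libraries 1 and 3. The gland share and the fibroblast share both differ between these libraries (fibroblast markers 0.378%, 0.871% and 1.37% of counts in normal libraries 1, 2 and 3), and their part was not tested.

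CAF library 1 differed from CAF libraries 2 and 3 in the same manner. It lay more than 1 below their mean on the log2(CPM + 1) scale in 10 of the 35 genes, from Vps36 (-3.89) and Rab11a (-3.35) to Snap23 (-1.38), and more than 1 above in 4, Vps37b (1.82), Chmp4b (1.41), Hgs (1.27) and Cd82 (1.21). Over all tested genes the shares were 24.5% and 10.6%. The 4 genes that were high there had 55.1% to 58.1% GC, above the median of 51.4% over all tested genes with a GC value, but so did Arf6, Smpd3 and Vps4a among the 10 that were low.

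Ratios between related genes within a library were compared because the scaling of the library cancels in them up to the added 1 CPM. Of 6 fixed pairs 5 could be formed, and none passed the two-sided exact permutation test over libraries, whose smallest possible p for 3 against 3 is 0.1. Chmp2a over Chmp2b averaged 3.07 ± 1.39 in CAF and 3.78 ± 0.34 in normal libraries on the log2 scale (SD, n = 3 in each; exact p = 0.4, adjusted over the 5 pairs 0.667). This ratio was 3.90 to 4.68 in the GC-favouring and 2.21 to 3.41 in the AT-favouring libraries, without overlap between these sets, whereas the other 4 ratios overlapped between them (Vps4a over Vps4b was 1.39 to 2.18 and 0.52 to 1.46, and Rab27a over Rab27b 2.59 to 3.87 and 2.16 to 2.94). Transcript GC content is 53.3% for Chmp2a and 43.1% for Chmp2b. Vps4a over Vps4b averaged 1.14 ± 0.86 and 1.68 ± 0.44 (exact p = 0.4), and Flot1 over Flot2 0.66 ± 0.25 and 0.30 ± 0.17 (exact p = 0.2). Rab27a over Rab27b averaged 3.01 ± 0.78 and 2.87 ± 0.89 (exact p = 0.8), and Stam over Stam2 0.88 ± 0.78 and 0.53 ± 1.11 (exact p = 0.6).

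**Figure D5:**
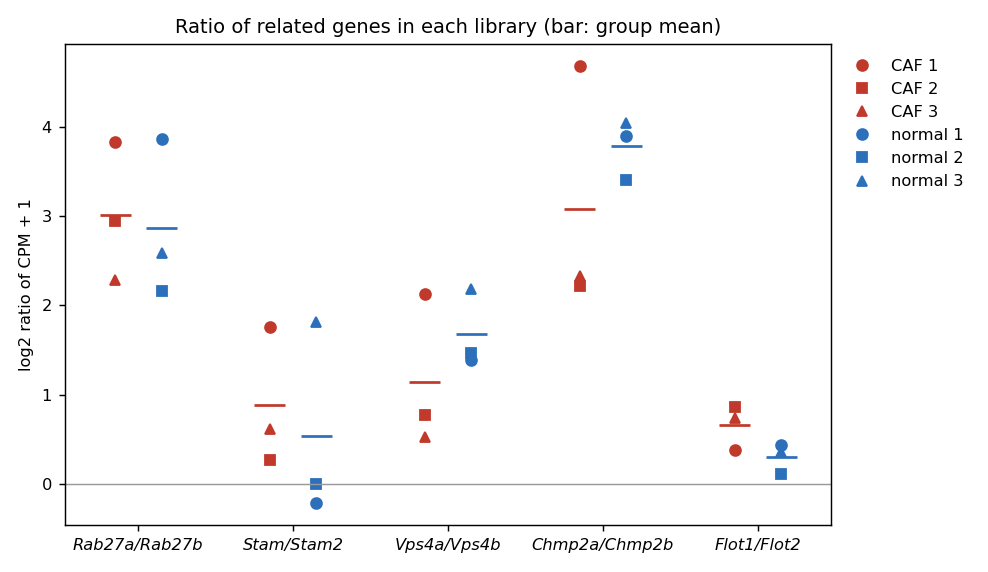
Log2 ratio of CPM + 1 between related vesicle genes in each library, CAF in red and normal in blue, with a bar at each group mean. For Chmp2a over Chmp2b the 3 GC-favouring libraries (CAF 1, normal 1, normal 3) lie at 3.90 to 4.68, above the other 3.

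Other genes of the vesicle pathway, in 6 lists of 100 genes with 98 found and 89 tested, also gave no called gene by edgeR. At an unadjusted p under 0.05 there were 9 higher and 2 lower in CAF, against 7.37% and 7.97% of all tested genes, and the median log2 fold change was 0.17. DESeq2 called 4 of the 98 (1 higher and 3 lower in CAF), where it called 7.28% of all genes tested. Limma-voom called 0 of the pathway genes and 0.641% of all genes tested. The lists were tetraspanins (11 tested), ESCRT and associated genes (17), RABs and RAB27 effectors (16), fusion factors (16), syndecan, syntenin and lipid enzymes (14) and vesicle cargo and shedding genes (15).

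Tspan4, a tetraspanin of the fibres that migrating cells leave behind, was at 426, 474 and 340 CPM in CAF libraries 1, 2 and 3 and at 62.8, 53.2 and 186 CPM in normal libraries 1, 2 and 3. The groups did not overlap, and the log2 fold change of 2.04 ± 0.53 (SE) did not pass (adjusted p = 0.104). Tspan8, a tetraspanin of gut epithelium, was at 5.38 to 6.76 CPM in CAF and at 126, 50.7 and 12.5 CPM in normal libraries 1, 2 and 3 (log2 fold change -3.41, adjusted p = 0.08). Sytl1, an effector that RAB27 proteins bind in secretory cells, was at 0, 4.69 and 5.14 CPM in CAF and at 69.0, 62.1 and 15 CPM in normal libraries 1, 2 and 3. It had the smallest p of these lists (log2 fold change -3.59, adjusted p = 0.0749). Both Tspan8 and Sytl1 followed the order of the gland share in the normal libraries, and the part of gland RNA was not tested.

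Sdc1, the syndecan whose cytoplasmic tail binds syntenin, was at 492, 379 and 257 CPM in CAF and at 184, 200 and 96.3 CPM in normal libraries, or 1.23 ± 0.41 (SE) on the log2 scale (adjusted p = 0.203). Itgb1, the integrin subunit found on most vesicles, was at 540, 416 and 319 CPM in CAF and at 123, 122 and 275 CPM in normal libraries (log2 fold change 1.29, adjusted p = 0.205). The groups did not overlap for either gene. Bst2, the interferon-induced tether that holds vesicles at the cell surface, stood at -1.09 on the log2 scale without passing (adjusted p = 0.391), and the sphingomyelin synthase Sgms2 at -0.89 (adjusted p = 0.459). Among the remaining ESCRT genes the ESCRT-I subunits Vps37a and Mvb12a, of smallest p in each direction, had log2 fold changes of 0.73 and -0.60 (adjusted p = 0.709 and 0.386). Rab11b, a recycling RAB, had 1.07 (adjusted p = 0.427), the exocyst-binding GTPase Rala 0.61 and the SNARE-recycling ATPase Nsf -0.13 (adjusted p = 0.655 and 0.912).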

How the data were processed

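RNA 3′ ends were sequenced by MARS-seq, per the labels' protocols, in 6 libraries of sorted stomach fibroblasts (3 CAF, 3 normal). Tools listed without version in the submitters' processing notes are cutadapt, STAR, HTSeq and DESeq2, with build mm10. What annotation was counted, and whether strand and molecular identifiers were used, is not given in the sources used here. Tests used the authors' deposited raw counts per gene symbol. The authors' deposited log2 fold changes and adjusted p-values were used only as named, and 12 other columns (normalized and regularized values) were not used.

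The test was that of edgeR 4.0.16 under R 4.3.3 (filterByExpr defaults, trimmed mean of M-values, glmQLFit and glmQLFTest, Benjamini-Hochberg over 10148 genes, threshold 0.05). Standard errors and 95% intervals are approximate, computed from each gene's F statistic. CPM values use the scaled library sizes. The code was tested on simulated data. GC content was computed on GENCODE M21 transcripts (97.3% of tested genes had a value). Alternatives were DESeq2 1.42.0, limma-voom (limma 3.58.1), other factors and filters, each library left out, number of mice, removal of gland genes, normal libraries 1 and 2 left out, and, chosen after seeing the data, the GC set as a block. Each library held separate mice. Depths were 644522 to 6422568 counts, and 3 counts equal 0.406 to 4.39 CPM.

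The genes and lists were chosen with earlier results of these data known. The rule for naming gave full values to the 2 genes of smallest p in each functional group and to both genes of each related pair, and in the other lists took the gene of smallest p in each direction.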

Additional observations from a re-analysis of the deposited data

How the results depend on the processing

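No paired analysis was possible because the labels give the CAF and normal libraries no shared numbers. The number of the 35 genes called was 0 under each alternative except without normal library 3, when Rab31 was called (0 to 1 with 1 library left out). Genes called in the whole table numbered 935 with DESeq2, 65 with limma-voom, 0 without normal libraries 1 and 2 (1271 at an unadjusted p under 0.05), and 0 (without normal library 1; 793 at an unadjusted p under 0.05) to 1193 (without normal library 3) with 1 library left out. With CAF libraries 1, 2 or 3 left out they were 49, 4 and 29, and without normal library 2 they were 6. Of the other pathway genes DESeq2 called 4 (Sytl1, Tspan4, Tspan8 and Tspan15, the last named after its values were seen), beside 7.28% of all genes it tested. With 1 library left out edgeR called 0 to 6 of these pathway genes. The 6 were without normal library 3, in the fit that called 10% of all genes tested. The median log2 fold change of the 35 genes was 0.41 without normal libraries 1 and 2, where that of all tested genes was 0.29, and -0.030 (without normal library 2) to 0.12 with 1 library left out.

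Directions turned in genes that were not called with all 6 libraries. Without normal libraries 1 and 2 the log2 fold change was -0.41 for Cd63, 1.65 for Rab27a, 0.41 for Vps28, 0.23 for Vps25, 1.13 for Vps36, 2.14 for Smpd3, -0.24 for Flot1, 0.48 for Chmp2a and -0.57 for Flot2. Adjusted for mice per library it was 0.062 for Rab27a, 0.10 for Vps25, -0.18 for Vps4a, 0.042 for Chmp2a and -0.058 for Flot2. With the GC set as a block it was 0.066 for Vps25, -0.048 for Vps4b, -0.70 for Arf6 and -0.45 for Vps4a. It was -0.012 for Arf6 with DESeq2, and with limma-voom -0.042 for Hgs, 0.042 for Vps36 and 0.021 for Pdcd6ip. Vps36 was at 0.041 with upper-quartile factors, 0.016 with no filter and 0.051 with at least 10 counts in 3 libraries, and Vps25 at 0.011 and 0.030 with the latter pair of filters. With 1 library left out the log2 fold change ranged from -0.053 to 0.83 for Cd63, 0.53 to 1.54 for Rab31, -0.40 to 0.39 for Hgs, -0.42 to 0.0019 for Vps28, -0.17 to 0.093 for Vps25, -0.33 to 0.41 for Vps36, -0.51 to 0.25 for Pdcd6ip, -1.64 to 0.44 for Smpd3, -0.44 to 1.92 for Arf6, -0.25 to 0.39 for Vps4a and -0.20 to 0.46 for Flot2. The log2 ratio of Rab27a over Rab27b differed by -0.049 with a pseudocount of 5 CPM and by -0.26 to 0.64 with 1 library left out, and that of Stam over Stam2 by -0.41 with a pseudocount of 0.1 CPM and by -0.090 to 0.99. The cause of these changes was not tested. Cd82, Stam, Tsg101, Chmp6, Chmp2b, Sdcbp, Snap23 and Vamp3 kept their direction under each alternative in which they were tested, and none of them passed in any (Cd82 ranged from -1.85 to -1.06, with adjusted p from 0.057 to 0.538). Their sizes moved: over all alternatives the log2 fold change was 0.74 to 2.26 for Sdcbp, 0.94 to 2.48 for Snap23, 0.16 to 2.00 for Chmp2b and 1.26 to 2.05 for Stam. The groups of Cd82, Stam, Tsg101, Chmp6 and Vamp3 do not overlap, so leaving out libraries could hardly turn their direction. That they kept it is no separate support.

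Depth limits the genes with few counts: in CAF library 1, 3 counts correspond to 4.39 CPM, and Rab11a, Vps36, Arf6, Vps4b, Rab5a and Pdcd6ip had 0 to 3 counts there, and Stam and Chmp2b 5. In normal library 3, where 3 counts correspond to 3.75 CPM, Rab11a, Stam, Arf6 and Snap23 had 1 to 3 counts. Rab27a, Rab5a, Vps36 and Vps4b had 4 there.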
